A study of Mus musculus with 10 samples.

Results

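A set of 10 genes of the bone morphogenetic protein (BMP) pathway was followed in mouse thymic epithelial cells (TEC) obtained by cell sorting. They are the ligands Bmp4, Bmp2 and Bmp7, the secreted antagonist Grem1, the inhibitory Smads Smad6 and Smad7, and the target genes Id1, Id2, Id3 and Id4. They were picked by symbol, and all 10 were present among the 15790 genes of the deposited count table. All 10 passed the filter on low counts, Grem1 only through its counts in AR3_Het and Bmp4 only through those in AR3_mut and nude. The 3 AR3_mut libraries carry the genotype Foxn1 del AR3 mut, the 4 nude libraries carry nu/nu, and the 3 AR3_Het libraries carry Foxn1 del AR3 het and serve as controls. Foxn1 is the forkhead factor on which TEC differentiation depends, and the nu allele disrupts it. The labels do not give the zygosity of AR3_mut, and the AR3_Het controls themselves carry the del AR3 allele. AR3_mut and AR3_Het are C57BL/6 mice of 4.5 weeks, whereas nude mice are of the ICR strain and 5 weeks old, so effects of strain and age on nude cannot be told apart from those of genotype. The labels name neither the sort markers nor separate animals behind the libraries, and the p-values below then reflect library-to-library spread alone, which may be technical.

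BMPs are secreted ligands of the TGF-beta family. They bind paired type I and type II receptors, which phosphorylate Smad1, Smad5 and Smad9. These join Smad4 and switch on the Id genes, whose products bind E proteins and keep them off DNA, and also Smad6 and Smad7, which feed back to damp the receptors. In the mouse, Bmp4 is made in the early thymus primordium and the mesenchyme around it, and in the adult thymus by endothelial cells and fibroblasts. Id genes and Smad7 also respond to other signals, including TGF-beta and serum.

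Libraries were made by MARS-seq, which counts transcript 3′ ends, and held 1056066 to 2667973 counts in AR3_mut, 1901282 to 3302161 in nude and 2948283 to 4175851 in AR3_Het. Levels are in CPM (counts relative to library size) with sizes adjusted by TMM, a scaling that assumes most genes do not change. Levels of different genes are not ranked against each other, since 3′ counting efficiency can differ between genes. Foxn1 itself had 4, 2 and 2 counts in AR3_mut 1, 2 and 3 and 4, 3, 1 and 2 counts in nude 1 to 4, against 1844, 1046 and 1711 counts in AR3_Het 1, 2 and 3. The 6 TEC-defining genes made up 0.00152 to 0.00304% of counts in AR3_mut and 0.00048 to 0.000894% in nude, against 1.35 to 1.58% in AR3_Het, and in nude Psmb11 and Fezf2 were at 0. The 8 general epithelial markers made up 0.184 to 0.495% in AR3_mut, 0.456 to 0.689% in nude and 0.894 to 1.24% in AR3_Het. The 10 endothelial markers made up 0.430 to 0.541% in AR3_mut and 0.0988 to 0.189% in nude, against 0.0190 to 0.0216% in AR3_Het, and 8 fibroblast markers 0.277 to 0.581% and 0.433 to 1.23%, against 0.0166 to 0.0310%. The 8 pericyte and smooth muscle markers made up 0.1997 to 0.264% in AR3_mut and 0.0327 to 0.120% in nude, against 0.0416 to 0.0476% in AR3_Het. The 9 immediate-early genes, which cell dissociation can induce, made up 2.15 to 2.42% and 1.47 to 2.21%, against 0.263 to 0.414%. The 8 thymocyte markers were lower in both mutants, at no more than 0.00104% of counts in AR3_mut and 0.000664% in nude, against 0.0669 to 0.125% in AR3_Het. Myeloid markers took 0.0168 to 0.311% in AR3_mut, highest in AR3_mut 1, 0.00705 to 0.0185% in nude and 0.0288 to 0.0584% in AR3_Het. Schwann cell markers took 0.0036 to 0.012% in AR3_mut, 0.0119 to 0.0133% in nude and 0.00146 to 0.00176% in AR3_Het. The part of these lists in the results was not tested, and in bulk samples fewer cells of a type and less RNA per cell cannot be told apart. Among single libraries, AR3_Het 3 carried 83.5 CPM of the Y-linked gene Ddx3y while all others were at 1.03 CPM or below, and nude 3 carried 17698 CPM of the thyroid gene Tg.

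The stretch 250 bases upstream of the RefSeq start is shown for Bmp4 and Grem1, the ligand and the antagonist that differed from AR3_Het in opposite directions. Capitals mark GGCGCC, a GC-rich Smad element, and CAGAC or its complement GTCTG, a Smad box, both searched on both strands. Bmp4 lies on chromosome 14 at 46383520 to 46390669 and Grem1 on chromosome 2 at 113746164 to 113758646, both on the minus strand of GRCm38 (GENCODE M21), and both stretches are outside those intervals.
Bmp4, chr14:46390670-46390919, minus strand: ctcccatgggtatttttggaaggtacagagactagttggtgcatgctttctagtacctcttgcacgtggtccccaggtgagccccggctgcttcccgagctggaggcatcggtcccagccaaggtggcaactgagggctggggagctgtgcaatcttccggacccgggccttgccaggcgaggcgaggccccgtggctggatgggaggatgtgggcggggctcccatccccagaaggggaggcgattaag
Grem1, chr2:113758649-113758898, minus strand: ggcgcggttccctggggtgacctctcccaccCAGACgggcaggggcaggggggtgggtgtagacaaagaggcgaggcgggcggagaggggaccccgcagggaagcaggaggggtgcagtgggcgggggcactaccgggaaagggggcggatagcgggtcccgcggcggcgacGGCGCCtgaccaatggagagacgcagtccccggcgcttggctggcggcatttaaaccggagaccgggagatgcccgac

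RefSeq windows of 300 bases, 250 before and 50 after the start, were matched for 6 of the 10 genes, namely Bmp4, Grem1, Smad6, Id2, Id3 and Id4. GGCGCC was found in 3 of these 6 (Grem1, Id2 and Id4), and in 11.9% of all 32851 mouse windows. CAGAC was found in 2 of the 6 (Grem1 and Id3), and in 49.6% of all windows. The windows of Bmp4 and Smad6 held neither set of letters. A match describes letters and is not a measured binding site. The stretches of 30 bases around the matches in the Id genes are shown because these genes are the pathway's direct targets. Those of Id3 and Id2 lie inside the gene intervals given for them by GENCODE M21, and that of Id4 lies upstream of its interval.
Id3, chr4:136143643-136143672, plus strand: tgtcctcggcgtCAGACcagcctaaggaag
Id3, chr4:136143742-136143771, plus strand: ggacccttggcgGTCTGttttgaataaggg
Id2, chr12:25096306-25096335, minus strand: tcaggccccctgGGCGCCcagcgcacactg
Id4, chr13:48260956-48260985, plus strand: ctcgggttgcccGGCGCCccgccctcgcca

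**Figure D1:**
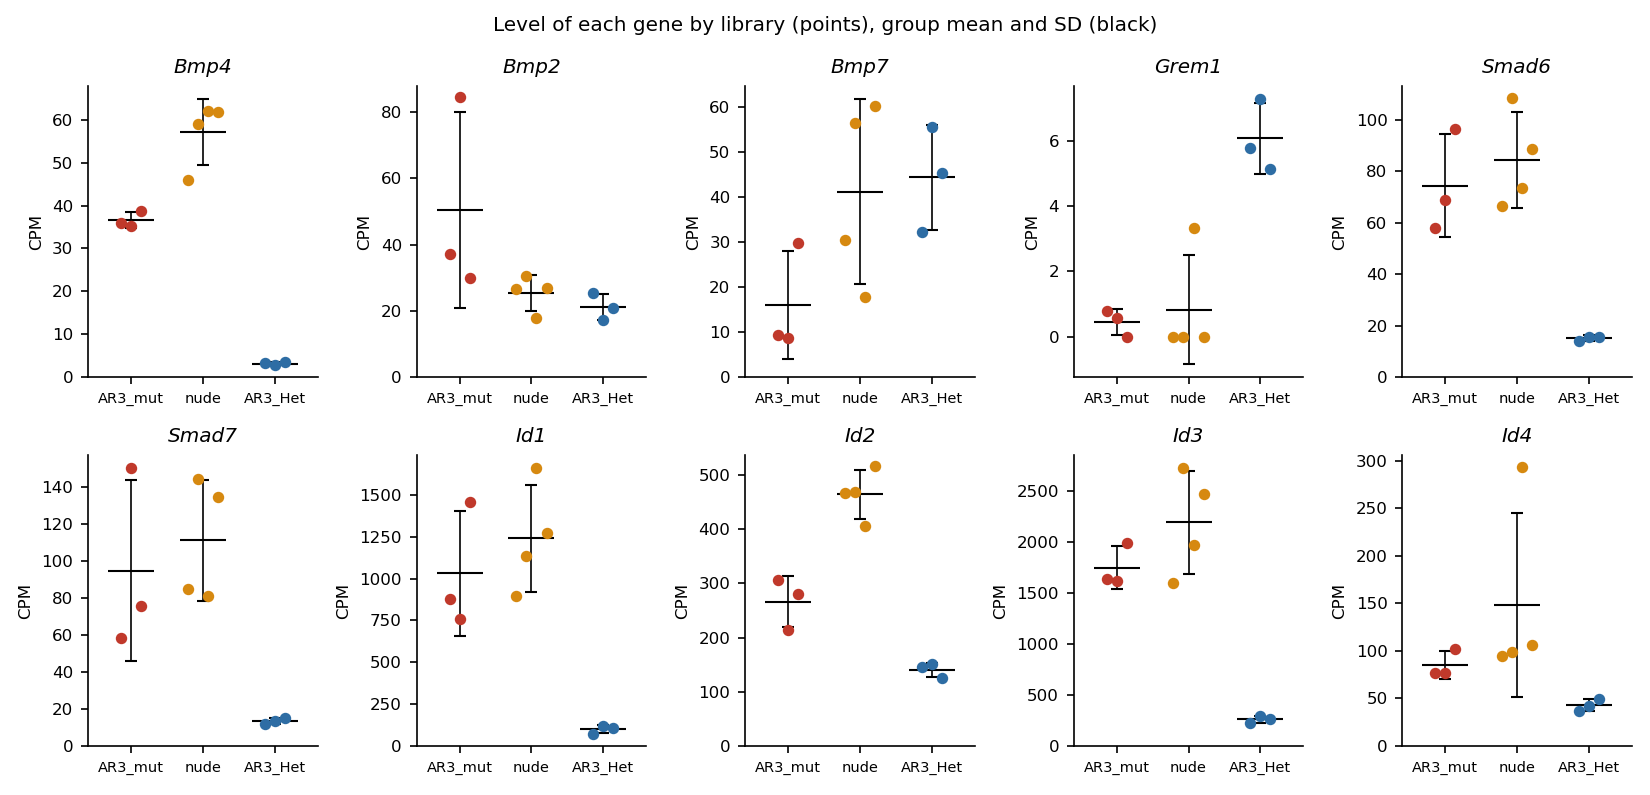
Level of each of the 10 genes in CPM, 1 panel a gene, with 1 point a library and AR3_mut, nude and AR3_Het from left to right. For Bmp4, Smad6, Smad7 and the 4 Id genes, every AR3_mut and every nude library lay above every AR3_Het library.

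Of the ligands, Bmp4 was higher in both mutants than in AR3_Het, while in AR3_mut Bmp2 was higher and Bmp7 lower than in AR3_Het, and neither passed the test in nude. The difference between the mutants themselves did not pass the test for Bmp2 or Bmp7. Bmp4, the BMP of the thymus primordium, had 36.0, 35.3 and 38.8 CPM in AR3_mut 1, 2 and 3 and 45.9, 59.0, 62.0 and 61.8 CPM in nude 1 to 4, against 3.31, 2.73 and 3.43 CPM in AR3_Het 1, 2 and 3. No AR3_mut or nude library came near the AR3_Het libraries, which rested on 16, 9 and 16 counts. By edgeR's quasi-likelihood test with Benjamini-Hochberg adjustment, used throughout, the log2 fold change was 3.50 (SE 0.22, adjusted p = 7.14e-07) in AR3_mut and 4.14 (SE 0.21, adjusted p = 1.49e-07) in nude. Only AR3_mut and nude carried Bmp4 past the filter on low counts, so its calls describe these libraries. Fitted with no filter, the AR3_mut value was 3.50 (adjusted p = 4.0e-07 by edgeR). Both nude and AR3_mut are set against the same AR3_Het libraries. Endothelial and fibroblast markers moved in the same direction as Bmp4 in both mutants. Between the mutants, the endothelial list was higher in AR3_mut, the fibroblast shares overlapped, and Bmp4 was lower in AR3_mut. The part of these lists in the Bmp4 values was not tested. Bmp4 overlaps the predicted genes Gm15217 and Gm15222 on the other strand, and since the sources used here do not give the strand setting of the counting, reads of these genes cannot be told apart from its own.

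Bmp2, a ligand with largely the same receptors as Bmp4, had 37.2, 84.5 and 29.9 CPM in AR3_mut 1, 2 and 3 and 26.7, 30.5, 17.7 and 27.0 CPM in nude 1 to 4, against 25.2, 17.3 and 20.8 CPM in AR3_Het 1, 2 and 3. AR3_mut 2 was highest by a wide margin, the AR3_mut and AR3_Het libraries did not overlap, and the nude libraries overlapped AR3_Het. Its log2 fold change was 1.26 (SE 0.36, adjusted p = 0.0136) in AR3_mut and 0.27 (SE 0.33, adjusted p = 0.531) in nude. Without AR3_mut 2 the call in AR3_mut was lost at 0.61 (adjusted p = 0.117), and without AR3_Het 2 it was lost at 1.06 (adjusted p = 0.0687).

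Bmp7, a ligand that signals partly through other type I receptors than Bmp4 does, had 9.39, 8.68 and 29.9 CPM in AR3_mut 1, 2 and 3 and 30.3, 56.5, 17.7 and 60.2 CPM in nude 1 to 4, against 32.3, 55.5 and 45.3 CPM in AR3_Het 1, 2 and 3. AR3_mut 3 lay just under the lowest AR3_Het library, and the nude libraries spread across the AR3_Het range and below it. The log2 fold change was −1.59 (SE 0.53, adjusted p = 0.031) in AR3_mut and −0.09 (SE 0.44, adjusted p = 0.877) in nude. The call in AR3_mut was lost without AR3_mut 1, AR3_mut 2, AR3_Het 2 or AR3_Het 3, with log2 fold changes of −1.28, −1.37, −1.47 and −1.58 and adjusted p = 0.114, 0.103, 0.0834 and 0.0681. Without AR3_mut 3, the library of lowest depth, the difference was −2.28 (adjusted p = 0.0071).

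The count of Bmp4 over that of Bmp7 in the same library, which no scaling affects, had a median of 3.83 in AR3_mut (1.3 to 4.07) and 1.28 in nude (1.03 to 3.5), against 0.0758 in AR3_Het (0.0492 to 0.103). Every AR3_mut and nude library had a higher ratio than every AR3_Het library, and AR3_mut and nude overlapped each other. This ratio and those of the Id genes were chosen after the values were seen and are given without a test.

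The antagonist Grem1 was the member that was lower in both mutants. Its product, Gremlin, binds BMP ligands and keeps them from their receptors. It had 0.782, 0.579 and 0 CPM in AR3_mut 1, 2 and 3 and 0, 0, 3.32 and 0 CPM in nude 1 to 4, against 5.79, 7.27 and 5.15 CPM in AR3_Het 1, 2 and 3. All 6 counts of nude were in nude 3, the library with high Tg, and the AR3_Het libraries held 28, 24 and 24 counts. Pooled counts of 3 in AR3_mut and 76 in AR3_Het gave a log2 ratio of −3.39 (95% counting interval −5.70 to −1.79), and 6 counts in nude gave −3.23 (−4.72 to −2.04). Grem1 entered the fit only because it is high in AR3_Het, so its calls (adjusted p = 0.0283 in AR3_mut and 0.0134 in nude by edgeR) describe these libraries. Fitted with no filter on low counts, adjusted p was 0.0326 and 0.0165. Without nude 3, nude held 0 counts of Grem1. In AR3_mut the call was lost without any 1 of AR3_mut 1, AR3_mut 2, AR3_mut 3, AR3_Het 1 or AR3_Het 2, at adjusted p = 0.0663, 0.0698, 0.0766, 0.0555 and 0.0623.

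Both inhibitory Smads were higher in both mutants. Smad6, which blocks Smad1 and related Smads more than the TGF-beta Smads, had 57.9, 68.9 and 96.5 CPM in AR3_mut 1, 2 and 3 and 66.5, 108, 73.6 and 88.8 CPM in nude 1 to 4, against 13.9, 15.8 and 15.7 CPM in AR3_Het 1, 2 and 3. The lowest mutant library was well above the highest AR3_Het library. Its log2 fold change was 2.28 (SE 0.25, adjusted p = 2.45e-05) in AR3_mut and 2.48 (SE 0.24, adjusted p = 7.5e-06) in nude. Smad6 lies on chromosome 9 at 63953076 to 64022059, on the minus strand.

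Smad7, which blocks both BMP and TGF-beta receptors, had 58.3, 150.5 and 75.6 CPM in AR3_mut 1, 2 and 3 and 84.9, 144, 81.3 and 135 CPM in nude 1 to 4, against 11.8, 13.6 and 15.2 CPM in AR3_Het 1, 2 and 3. The mutant libraries varied among themselves, with AR3_mut 2, nude 2 and nude 4 highest, yet did not overlap AR3_Het. The log2 fold change was 2.80 (SE 0.37, adjusted p = 0.00011) in AR3_mut and 3.04 (SE 0.36, adjusted p = 3.77e-05) in nude. Endothelial cells express both genes, and the endothelial list was also higher in both mutants than in AR3_Het. Between the mutants that list was higher in AR3_mut, where Smad6 and Smad7 had log2 differences from nude of −0.20 and −0.23. Neither passed the test, and the part of the list was not tested.

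Among the target genes, Id1 and Id3 had the larger log2 fold changes and Id2 and Id4 the smaller ones. The endothelial, fibroblast and immediate-early lists were also higher in both mutants than in AR3_Het. Their part in the Id values was not tested. Id1, an inhibitor of E proteins first described as an inhibitor of differentiation, had 879, 760.03 and 1458 CPM in AR3_mut 1, 2 and 3 and 895, 1137, 1658 and 1271 CPM in nude 1 to 4, against 74.5, 120.3 and 110.5 CPM in AR3_Het 1, 2 and 3. AR3_mut 3 and nude 3 were highest within their groups, and every mutant library was far above AR3_Het. The log2 fold change of Id1 was 3.34 (SE 0.33, adjusted p = 1.15e-05) in AR3_mut and 3.61 (SE 0.32, adjusted p = 5.02e-06) in nude.

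Id3, which in lymphocytes holds E proteins in check, had 1635, 1617 and 1988 CPM in AR3_mut 1, 2 and 3 and 1598, 2725, 1965 and 2472 CPM in nude 1 to 4, against 226, 292 and 267 CPM in AR3_Het 1, 2 and 3. AR3_mut libraries were close together and inside the nude range, and both mutants were clear of AR3_Het. Its log2 fold change was 2.74 (SE 0.24, adjusted p = 5.02e-06) in AR3_mut and 3.07 (SE 0.23, adjusted p = 1.56e-06) in nude.

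Id2, which many epithelial and innate lymphoid cells express, had 305, 214 and 280 CPM in AR3_mut 1, 2 and 3 and 466, 467, 406 and 517 CPM in nude 1 to 4, against 145, 150 and 125 CPM in AR3_Het 1, 2 and 3. The 3 groups did not overlap, with nude highest and AR3_Het lowest. Its log2 fold change was 0.92 (SE 0.18, adjusted p = 0.00161) in AR3_mut and 1.73 (SE 0.18, adjusted p = 1.24e-05) in nude.

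Id4, a family member with a neural and mammary role in the mouse, had 76.6, 76.4 and 102.5 CPM in AR3_mut 1, 2 and 3 and 95.01, 99.4, 293 and 106 CPM in nude 1 to 4, against 37.0, 42.4 and 49.6 CPM in AR3_Het 1, 2 and 3. Neither mutant overlapped AR3_Het, and nude 3 stood apart from the other nude libraries. Its log2 fold change of 1.78 in nude (SE 0.39, adjusted p = 0.00254) was 1.22 without nude 3 (adjusted p = 0.00017). In AR3_mut the log2 fold change of 0.98 (SE 0.40) did not pass the test at adjusted p = 0.0717. With nude 3 left out of the fit, which pools the spread of all groups, the same 0.98 passed at adjusted p = 0.00108. Id4 overlaps A330033J07Rik and Gm49291 on the other strand, whose reads cannot be told apart from its own.

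**Figure D2:**
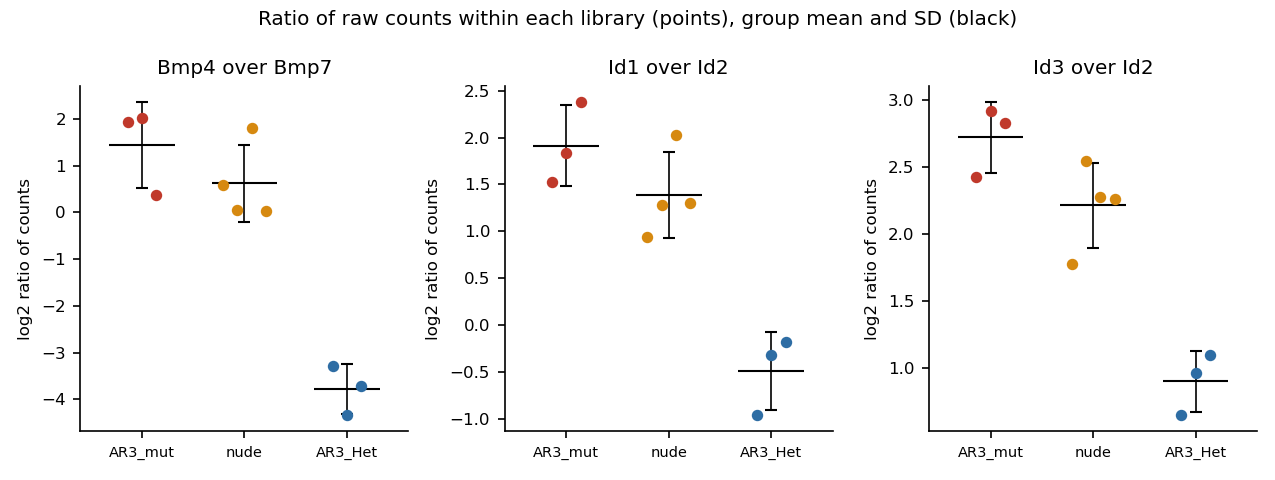
Ratio of raw counts of 2 genes within a library, on a log axis, for Bmp4 over Bmp7, Id1 over Id2 and Id3 over Id2, with 1 point a library and AR3_mut, nude and AR3_Het from left to right. In each of the 3 ratios every AR3_mut and nude library lay above every AR3_Het library.

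The balance within the Id family differed as well. The count of Id1 over that of Id2 had a median of 3.56 in AR3_mut (2.88 to 5.21) and 2.45 in nude (1.92 to 4.08), against 0.800 in AR3_Het (0.514 to 0.882). That of Id3 over Id2 had a median of 7.11 in AR3_mut (5.36 to 7.57) and 4.81 in nude (3.43 to 5.83), against 1.94 in AR3_Het (1.56 to 2.13). Library by library the mutants did not overlap AR3_Het in either ratio, while AR3_mut and nude overlapped each other.

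In AR3_mut against AR3_Het, 7 of the 10 genes were higher and 2 lower, where 41.8% of the 12912 genes tested were called (21.2% higher and 20.6% lower). The median log2 fold change was 1.77 over the 10 genes and −0.04 over all genes tested. In nude against AR3_Het, 7 were higher and 1 lower, where 47.9% of all genes were called (23.7% higher and 24.2% lower), with medians of 2.13 and −0.03. Grem1 is among the lower genes in both counts, and these counts therefore give no support to a fall. Bmp4, which the mutants carried past the filter, is among the higher genes in both and adds no support to a rise there. Groups were fully apart for all 10 genes in AR3_mut, 8 higher and 2 lower, where 55% of all genes were apart (26.1% higher and 28.9% lower). They were apart for 8 in nude, 7 higher and 1 lower, where 53.8% of all genes were (25.5% and 28.3%). The calls of Bmp4, Smad6, Smad7, Id1, Id2 and Id3 were kept in all 18 alternatives in both comparisons, among them a fit without AR3_Het 3 and nude 3 together. Scaling to library totals in place of TMM moved the median of all genes to −0.33 in AR3_mut and −0.41 in nude. It also moved the share of calls that were higher to 34.7% in AR3_mut, against 50.7% with TMM, and to 30.6% in nude, against 49.5%. Under it Bmp4 still had a log2 fold change of 3.21 and Id2 of 0.63 in AR3_mut, and both stayed called.

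Set against each other directly, the mutants differed in fewer of these genes. Bmp4 was lower in AR3_mut, at 36.7 ± 1.86 CPM (SD, n = 3), than in nude, at 57.2 ± 7.64 CPM (n = 4), a log2 difference of −0.64 (SE 0.17, adjusted p = 0.0359 by edgeR). Id2 was lower in AR3_mut, at 266 ± 47.2 CPM, than in nude, at 464 ± 45.3 CPM, by −0.80 on the log2 scale (SE 0.17, adjusted p = 0.0123). In both genes every AR3_mut library lay below every nude library, and these 2 of 10 members were the only ones whose mutant groups were apart, where 20.7% of all genes were (12% higher and 8.73% lower). The Bmp4 call was lost in 11 of 18 alternatives, without any 1 of AR3_mut 1, AR3_mut 2, AR3_mut 3, AR3_Het 1, nude 2, nude 3 or nude 4 among them, with adjusted p up to 0.136. Its log2 difference ran from −0.74 to −0.56 over all 18, and from −0.68 to −0.60 over the single libraries just named. That makes 2 of 10 genes lower and 0 higher, where 11.3% of all genes were called (7.58% higher and 3.71% lower). At an unadjusted p under 0.05, edgeR put 1 member higher and 3 lower. At the adjusted threshold DESeq2 called 0 members higher and 3 lower, the third being Bmp7, and limma-voom 0 higher and 2 lower. The shares just given are edgeR's at the adjusted threshold and are no background for these counts. DESeq2 called 752 genes lower, against 479 by edgeR, and no share over all genes is given for the unadjusted threshold.

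The other 8 genes did not pass the test between the mutants. Bmp2 (0.99, SE 0.33, adjusted p = 0.0784) and Bmp7 (−1.50, SE 0.51, adjusted p = 0.0842) had the largest log2 differences among them, and their libraries overlapped. Bmp7 passed without AR3_mut 3 (−2.19, adjusted p = 0.0302), without nude 3 (−1.76, adjusted p = 0.0225) and with DESeq2 (−1.43, adjusted p = 0.0442). Bmp2 passed without AR3_mut 3 (1.23, adjusted p = 0.0456), and without AR3_mut 2 its log2 difference was 0.38 (adjusted p = 0.43). Smad6, Smad7, Id1 and Id3 differed by −0.20, −0.23, −0.27 and −0.33 on the log2 scale, with SE of 0.22, 0.32, 0.28 and 0.21. Id4 differed by −0.80 (SE 0.38), and by −0.24 (adjusted p = 0.415) without nude 3, its highest library. Grem1, with 3 and 6 counts, had a log2 ratio of −0.16 whose counting interval ran from −2.79 to 2.06.

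Beyond these members, 59 further genes of the pathway were listed, of which 51 were in the table, 44 were tested and 8 were not analysed here. In AR3_mut 23 were higher and 3 lower than in AR3_Het, where 21.2% of all genes were higher and 20.6% lower. In nude 24 were higher and 2 lower, where 23.7% and 24.2% of all genes were. Some genes pass the filter only through the group where they are high, so these counts are descriptions. Among them are Bmp3, Dlx3 and Sostdc1 through AR3_Het, Gdf10 through AR3_mut, Smad9 through nude, and Gdf5, Tll1, Acvrl1 and Chrd through the mutants. The median log2 fold change was 1.12 in AR3_mut and 1.10 in nude, against −0.04 and −0.03 over all genes tested.

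**Figure D3:**
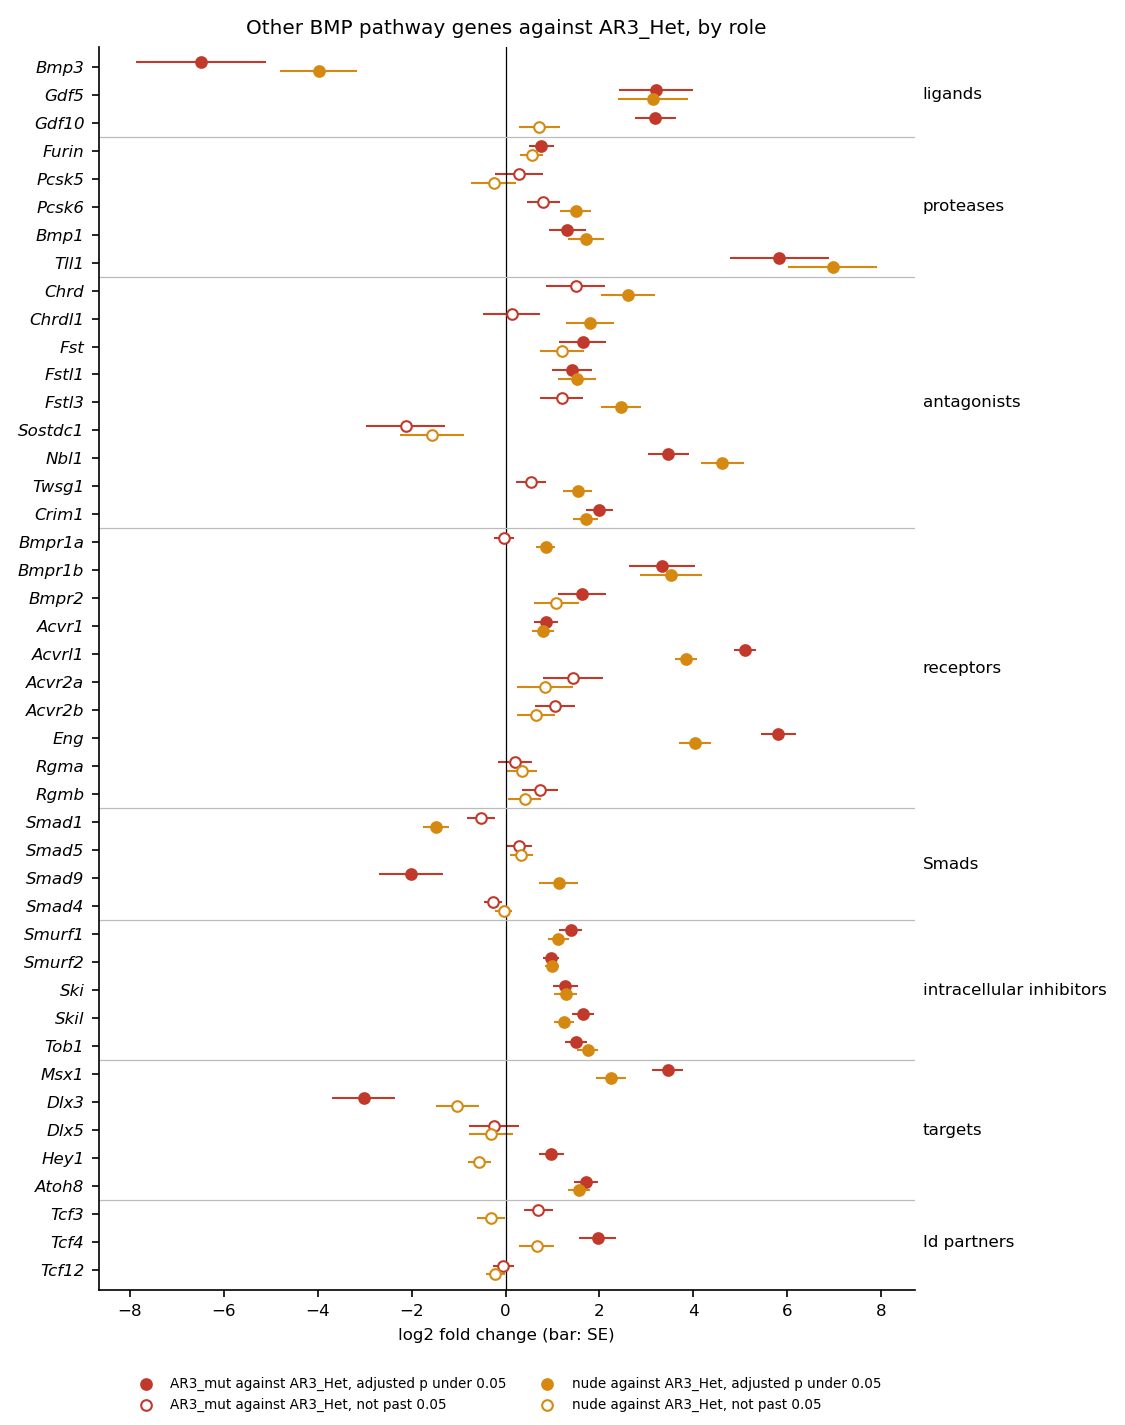
Fitted log2 fold change of the tested further pathway genes, ordered by role, in AR3_mut and in nude against AR3_Het. The receptor genes Eng and Acvrl1 and the 5 intracellular inhibitors lie above 0 in both, and the fitted values of Bmp3, with 0 counts in AR3_mut, and of Tll1, with 1 count in AR3_Het, are no measure of size.

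Of 3 further ligands tested, Gdf10, a relative of Bmp3, averaged 19.8 ± 1.20 CPM in AR3_mut and 3.56 ± 1.77 CPM in nude, against 2.14 ± 0.550 CPM in AR3_Het, and rose in AR3_mut (log2 fold change 3.19, adjusted p = 0.000139). Only AR3_mut carried Gdf10 past the filter, so its call describes these libraries. Gdf5, a ligand of joints and tendon, had 35, 18 and 4 counts in AR3_mut, against 7, 4 and 2 in AR3_Het. In nude 1 to 4 it had 57, 6, 13 and 16 counts. Only the mutants carried Gdf5 past the filter, so its calls describe these libraries (log2 fold change 3.21, adjusted p = 0.0064, in AR3_mut and 3.14, adjusted p = 0.00461, in nude). Bmp3, a ligand that opposes other BMPs, had 0 counts in AR3_mut, against 52 in AR3_Het, and was at least 7.17-fold lower with 3 counts over the group as the floor. The 95% counting interval, which also covers the error of the 52 counts, allowed a log2 ratio of up to −2.49. In nude its 2 counts gave a log2 ratio of −4.26 (95% counting interval −7.35 to −2.34).

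Genes whose products cut ligands, antagonists or matrix rose in 3 of 5 cases in each mutant, where 21.2% and 23.7% of all genes were higher. Bmp1, a metalloprotease that cleaves chordin and procollagen, averaged 134 ± 50.8 CPM in AR3_mut and 176 ± 77.5 CPM in nude, against 53.5 ± 8.53 CPM in AR3_Het (log2 fold changes of 1.32 and 1.72). Its relative Tll1 had 34 counts in AR3_mut and 153 in nude, against 1 in AR3_Het, which gave log2 ratios of 6.36 (95% counting interval 3.79 to 11.7) and 7.70 (5.20 to 13.01). By library these were 9, 16 and 9 counts in AR3_mut 1, 2 and 3 and 67, 53, 7 and 26 in nude 1 to 4. The intervals rest on pooled counts and do not cover this spread between libraries. Of the convertases that mature BMP precursors, Furin rose in AR3_mut (0.76, adjusted p = 0.0397) and Pcsk6 in nude (1.49, adjusted p = 0.00291). The AR3_mut call of Bmp1 was lost without AR3_mut 2, AR3_mut 3, AR3_Het 1 or AR3_Het 2 (log2 fold changes of 1.17, 1.08, 1.11 and 1.31) and with library totals (1.02, adjusted p = 0.0565). That of Furin was lost without AR3_mut 1, AR3_mut 3, AR3_Het 1 or AR3_Het 3 (0.80, 0.54, 0.72 and 0.56) and with library totals (0.47, adjusted p = 0.168).

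Of 9 secreted antagonists, 4 rose in AR3_mut and 7 in nude, where 21.2% and 23.7% of all genes were higher, and none of the 9 was called lower. Sostdc1, an antagonist of BMP and Wnt signals, was named after its values were seen. It had 4, 2 and 2 counts in AR3_mut and 2, 1, 13 and 4 in nude, against 49, 15 and 26 in AR3_Het. In CPM, its AR3_mut libraries were all below AR3_Het, and nude 3 overlapped AR3_Het. Only the AR3_Het libraries carried Sostdc1 past the filter, so it is given as counts, with no test. Nbl1, a relative of Gremlin, averaged 543 ± 189.8 CPM in AR3_mut and 1205 ± 564 CPM in nude, against 49.0 ± 3.65 CPM in AR3_Het (log2 fold changes of 3.47 and 4.62). Crim1, a membrane protein that binds BMPs, rose in AR3_mut (1.998) and nude (1.713), and Fst, which binds activins and BMPs, rose in AR3_mut (1.64, adjusted p = 0.0212). The Fst call was lost without AR3_mut 1, AR3_mut 2, AR3_Het 1 or AR3_Het 2 (1.37, 1.58, 1.56 and 1.16) and with library totals (1.32, adjusted p = 0.0531). Chrd, which encodes chordin, rose in nude (2.61, adjusted p = 0.00261). Fstl3, a relative of follistatin, averaged 31.8 ± 12.3 CPM in AR3_mut and 75.6 ± 30.5 CPM in nude, against 13.9 ± 6.63 CPM in AR3_Het, and rose in nude (2.47, adjusted p = 0.000564). In AR3_mut its log2 fold change of 1.20 did not pass the test (adjusted p = 0.0532).

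Receptor genes rose in 5 of 10 cases in each mutant, and 41.8% and 47.9% of all genes were called in either direction (21.2% and 23.7% higher). The largest fold changes were those of 2 genes that endothelium is known for. Eng, the co-receptor endoglin, averaged 1172 ± 246 CPM in AR3_mut and 343 ± 121 CPM in nude, against 20.8 ± 5.96 CPM in AR3_Het, with log2 fold changes of 5.81 (adjusted p = 8.15e-07) and 4.04 (adjusted p = 3.64e-06). Acvrl1, the type I receptor Alk1, averaged 109 ± 19.8 CPM in AR3_mut and 45.5 ± 3.87 CPM in nude, against 3.13 ± 0.694 CPM in AR3_Het, with log2 fold changes of 5.10 and 3.84. Both were higher in AR3_mut than in nude (1.77, adjusted p = 0.00347, and 1.26, adjusted p = 0.00183). So were 9 of the 10 endothelial markers, where 7.58% of all genes were higher. The BMP receptor Bmpr1a averaged 27.2 ± 5.20 CPM in AR3_mut and 50.4 ± 9.51 CPM in nude, against 27.9 ± 1.47 CPM in AR3_Het, and rose in nude (0.85, adjusted p = 0.0035), though not with library totals (0.47, adjusted p = 0.0718). Bmpr1a was lower in AR3_mut than in nude (−0.88, adjusted p = 0.0187), a call lost without AR3_mut 1, AR3_mut 3 or nude 1 (−0.83, −0.79 and −0.82). Acvr1, a receptor that Bmp7 uses, rose in AR3_mut (0.86, adjusted p = 0.0167), a call lost without AR3_mut 2, AR3_mut 3, AR3_Het 1 or AR3_Het 3 (0.73, 0.74, 0.72 and 0.70) and with library totals (0.57, adjusted p = 0.0718).

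Of the Smads that carry the signal, Smad1 averaged 35.6 ± 11.6 CPM in AR3_mut and 18.6 ± 6.71 CPM in nude, against 52.0 ± 3.72 CPM in AR3_Het, and fell in nude (−1.48, adjusted p = 0.00104). Smad9 had 3 counts in AR3_mut and 52 in nude, against 32 in AR3_Het, and was lower in AR3_mut than in nude by a log2 ratio of −3.28 (95% counting interval −5.60 to −1.65). That call was lost without AR3_mut 1 (fitted log2 difference −2.82, adjusted p = 0.0554). Against AR3_Het, Smad9 was called lower in AR3_mut (−2.01, adjusted p = 0.0313) and higher in nude (1.13, adjusted p = 0.0439). Only the nude libraries carried Smad9 past the filter, so the calls that set nude above AR3_Het or AR3_mut describe these libraries. The call in AR3_mut was lost in 7 of 17 alternatives, without AR3_mut 1, AR3_mut 2 or AR3_Het 3 among them (−1.68, −2.08 and −1.42). The call in nude was lost in 13 of 18, and was 0.79 without AR3_Het 1 and 0.92 without AR3_Het 2 (adjusted p = 0.226 and 0.177). The 5 tested genes for intracellular inhibitors rose in both mutants, where 21.2% of all genes were higher in AR3_mut and 23.7% in nude. Of these, Skil and Ski encode repressors that bind Smads, Tob1 an antiproliferative Smad partner, and Smurf1 a ubiquitin ligase for Smads. Skil (1.64 and 1.24), Tob1 (1.51 and 1.75), Smurf1 (1.39 and 1.12) and Ski (1.27 and 1.28) are given as log2 fold changes in AR3_mut and in nude.

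Other target genes rose in 3 of 5 cases in AR3_mut and 2 of 5 in nude, where 21.2% and 23.7% of all genes were higher and 41.8% and 47.9% were called in either direction. Msx1, a homeobox gene, averaged 88.0 ± 7.31 CPM in AR3_mut and 38.3 ± 13.5 CPM in nude, against 7.88 ± 2.80 CPM in AR3_Het, with log2 fold changes of 3.45 (adjusted p = 1.05e-05) and 2.25 (adjusted p = 0.000116). Atoh8, a target of Acvrl1 signalling in endothelium, rose in both (1.72 and 1.57). Hey1, a target shared with Notch, averaged 253 ± 19.6 CPM in AR3_mut and 87.9 ± 32.1 CPM in nude, against 129 ± 18.7 CPM in AR3_Het, and rose in AR3_mut (0.97, adjusted p = 0.0127), a call lost without AR3_Het 1 (0.80, adjusted p = 0.0695) and with library totals (0.68, adjusted p = 0.0651). Dlx3, a homeobox gene of epithelium named after its values were seen, had 4 counts in AR3_mut and 30 in nude, against 82 in AR3_Het, and only the AR3_Het libraries carried it past the filter. It is given as counts, with no test. Of the E proteins that Id proteins bind, Tcf4 averaged 90.9 ± 40.4 CPM in AR3_mut and 37.1 ± 11.3 CPM in nude, against 23.1 ± 9.74 CPM in AR3_Het, and rose in AR3_mut (1.96, adjusted p = 0.00204).

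Between the mutants, 7 of the 44 further genes were higher in AR3_mut and 2 lower, where 7.58% of all genes were higher and 3.71% lower. The 7 were Gdf10 (2.47), Eng, Acvrl1, Msx1 (1.20, adjusted p = 0.0181), Hey1 (1.53, adjusted p = 0.00368), Tcf3 (1.0045, adjusted p = 0.0477) and Tcf4 (1.30, adjusted p = 0.0406). The Msx1 call was lost without AR3_mut 3 (1.14, adjusted p = 0.0549). Tcf3 is a further E protein gene, whose call was kept in 5 of 18 alternatives and lost on leaving out any single library except nude 4, with log2 differences of 0.67 without AR3_mut 3 and 0.81 without nude 1 as the lowest. The call of Tcf4 was kept in 10 of 18, and lost without AR3_mut 2, AR3_mut 3, AR3_Het 1, nude 1, nude 2 or nude 4, with 0.87 without AR3_mut 2 as the lowest. The 2 were Bmpr1a and Smad9. Without AR3_mut 3 the count of higher genes was 4, and the count of lower genes was 0 without AR3_mut 1, 1 without AR3_mut 3 or nude 1, 4 without AR3_mut 2 and 7 without nude 3. Against AR3_Het, the count of lower genes in AR3_mut was 1 without AR3_Het 3. In nude that count was 5 without nude 3, and 1 without nude 1, nude 4, AR3_Het 1 or AR3_Het 3.

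The genes most like Bmp4 across the 10 libraries, by the root mean square difference of centred log2 CPM, were Ifrd1 (0.27), Cd302 (0.30), Id1 (0.34), Camk1 (0.35) and Ptrf (0.35). Those most like Id1 were Ier3 (0.24), Phlda1 (0.29), Fos (0.30), Ushbp1 (0.33) and Bcam (0.33). Fos, an immediate-early gene, averaged 5193 ± 689 CPM in AR3_mut and 4936 ± 877 CPM in nude, against 548 ± 114 CPM in AR3_Het. Among the members, the closest pairs were Id3 with Smad6 (0.30), Bmp4 with Id1 (0.34), Id3 with Smad7 (0.37) and Id1 with Id3 (0.39), while Id2 was 0.54 from Id4. The libraries of a group share genotype and strain, so these distances describe a 3-group pattern.

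In the authors' deposited table, the comparison named Foxn1_ATAC against Het, taken here as AR3_mut against AR3_Het, gave log2 fold changes of 3.46 for Bmp4, 3.29 for Id1 and −3.60 for Grem1. The sign was the same as above for all 10 members in that table's comparisons of Foxn1_ATAC with Het and with nude.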

How the data were processed

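The authors deposited raw counts per gene for 10 libraries in 1 table of 15790 genes, per the file headers. Another 20 per-library columns, normalized or transformed, were left unused. For each of 3 comparisons the authors also deposited a log2 fold change and an adjusted p-value per gene. The submitters' processing notes name STAR 2.4.2a, HTSeq, bcl2fastq, cutadapt, DESeq2 and the mm10 build. Since the sources used here do not say whether molecular identifiers were collapsed, intervals and floors cover counting error alone.

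The analysis used edgeR 4.0.16 (R 4.3.3). filterByExpr (minimum count 10, minimum total 15) left 12912 genes. A robust quasi-likelihood model with TMM scaling and group as its only term was fitted to all 10 libraries and checked on simulated counts. Tests were two-sided, adjusted over all genes tested, with a threshold of 0.05. The SE is the log2 fold change over the square root of F. Levels are mean ± SD of CPM.

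The members and gene lists were chosen with earlier results of these data known, and 1 pathway gene is not reported here. The rule for named genes takes all members, Foxn1, the 5 genes most like Bmp4 and Id1 (prior count 2), and per role and comparison up to 3 called pathway genes with the largest fold changes, a mean of 10 CPM or more and no overlap. The 18 alternatives were DESeq2 1.42.0, limma-voom (limma 3.58.1), RLE factors, library totals, no filter, only the groups compared, a replicate block, leaving out each of 10 libraries, and leaving out AR3_Het 3 and nude 3 together, which was added after seeing the data. Sequences are RefSeq's on GRCm38.p6. Within groups, libraries differed by more than counting error (chi-square per degree of freedom 4.01 or more).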

Additional observations from a re-analysis of the deposited data

Results flagged for a closer look

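Over the 4 nude libraries, 37 genes of the pathway were examined for a library set apart from the others by a wide gap, and 4 genes had one, where chance gives about 1 in 20. Nude 3 had 3.32 CPM of Grem1, while nude 1, 2 and 4 were at 0, and 293 CPM of Id4, while the other nude libraries had 95.01 to 106 CPM. Nude 1 had 56.0 CPM of Crim1, and nude 2 had 0.825 CPM of Bmp3. For Grem1 and Bmp3 the other 3 nude libraries were at 0, where any count would stand apart, so that chance rate does not apply to them. Nude 3 is the library with 17698 CPM of Tg, and its part in these values was not tested.

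The difference between the effects of the mutants, which share the AR3_Het libraries, is the direct comparison of AR3_mut with nude. It passed the test for Bmp4 (log2 difference −0.64) and Id2 (−0.80) among the members. Among the further pathway genes it passed for Gdf10 (2.47), Bmpr1a (−0.88), Acvrl1 (1.26), Eng (1.77), Smad9 (−3.14), Msx1 (1.20), Hey1 (1.53), Tcf3 (1.0045) and Tcf4 (1.30). Endothelial markers made up 0.430 to 0.541% of counts in AR3_mut and 0.0988 to 0.189% in nude, and pericyte and smooth muscle markers 0.1997 to 0.264% and 0.0327 to 0.120%. Their part in these differences was not tested.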

How the results depend on the processing

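Of the alternatives for members called, 317 kept the call and 25 lost it, and none reversed. Another 10 values of members that were not called changed sign and stayed uncalled. Grem1 in AR3_mut against nude (−0.25) was 0.89 with limma-voom, 3.66 without AR3_Het 3 and nude 3 together, and −0.81 to 3.78 with single libraries left out. Smad7 in the same comparison ran from −0.77 to 0.033 with single libraries left out, and Bmp3 from −2.81 to 0. Bmp2 in nude against AR3_Het was −0.11 with library totals. Bmp7 there was 0.16 without AR3_Het 3 and nude 3, and −0.33 to 0.15 with single libraries left out. The cause was not tested.

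Library totals gave 6 further pathway genes lower in AR3_mut and 6 in nude against AR3_Het, 4867 genes lower in nude, and 1 member lower in AR3_mut against nude. Over all genes tested, 2330 to 3881 were lower in AR3_mut against AR3_Het among the alternatives other than leaving out a single library. With only the 2 groups compared, AR3_mut against nude had 952 genes called, 287 lower, and 1 member and 1 pathway gene lower. DESeq2 gave 752 genes and 6 pathway genes lower there. Without AR3_Het 3 and nude 3 these were 754 and 7, and 5 pathway genes were lower in nude against AR3_Het.

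Leaving out single libraries, AR3_mut against AR3_Het had 0 to 2 members and 1 to 4 pathway genes lower, and nude had 1 to 5 pathway genes lower. Of all genes tested, 2318 to 2812 were lower in AR3_mut and 2752 to 3613 in nude in these fits. AR3_mut against nude had 883 to 1993 genes called, 608 to 1232 higher and 244 to 761 lower, 0 to 1 members higher and 1 to 2 lower, and 4 to 7 pathway genes higher and 0 to 7 lower.

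Libraries with the same number did not deviate together (correlations of −0.31 to 0.16). This gave no sign of a pairing by number, but deviations from the means of so few libraries cannot exclude one. With a replicate block, AR3_mut against nude had 948 genes called, 263 lower and 0 members lower, and Id2 was −0.75 (adjusted p = 0.0613). Against AR3_Het, 1 member was lower in AR3_mut and 0 in nude. Grem1 lost its calls (adjusted p = 0.0522 in AR3_mut and 0.0589 in nude) and Id4 gained one in AR3_mut (adjusted p = 0.0257). Genes with few counts, such as Grem1 with 3 in AR3_mut, are limited by depth.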
